A study of Homo sapiens with 18 samples.

Results

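The expression of the MYC, MAX and MXD network was examined by mRNA sequencing in 3 cell lines of head and neck squamous cell carcinoma (HNSCC): FaDu, SCC-9 and Detroit 562. The network was taken as 10 of the 19901 genes of the count table, chosen by gene name: MYC, MYCN, MYCL, MAX, MXD1, MXD3, MXD4, MXI1, MNT and MGA. Detroit 562 was established from a metastasis of a pharyngeal tumor, FaDu from a hypopharyngeal tumor and SCC-9 from a tumor of the tongue. Each line had 3 libraries of untreated cells (control) and 3 of cells given 50 ng/ml hepatocyte growth factor (HGF), the ligand of the Met receptor, for 16 h by the sample records and the paper, although the series record gives a longer time. The medium of SCC-9 (DMEM F12 with hydrocortisone) differed from that of the other lines (MEM-α), so for SCC-9 line and medium cannot be told apart. Nothing states that replicates came from separate cultures, beyond the experiment having been repeated, so p-values measure the spread between these libraries. A library held between 35304770 and 44003970 counts in all, with a median of 40138919. Epithelial markers fitted the labels: all 8 in FaDu and SCC-9 and 7 of 8 in Detroit 562 reached 1 CPM (a count scaled to library size by TMM) in every library, KRT14 being the exception, and their summed level ranged from 3937 to 13114 CPM. The leukocyte markers PTPRC and CD3E stayed near 0, at no more than 0.0956 CPM, while CD68, which epithelial cells also express, ranged from 16.8 to 57.9 CPM. The summed fibroblast markers stayed between 3.41 and 99.1 CPM and the endothelial markers between 0.487 and 8.34 CPM.

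MYC, MYCN and MYCL are basic helix-loop-helix leucine zipper transcription factors that bind DNA only as a dimer with MAX. The favoured site of the dimer is the E-box CACGTG, from which MYC and MAX raise transcription, above all of genes for ribosome biogenesis, nucleotide synthesis and metabolism. MXD1, MXD3, MXD4, MXI1 and MNT compete for MAX and the same sites and recruit SIN3 and histone deacetylases, so that dimers with them repress. MXD genes other than MXD3 are known to be switched on when squamous cells stop dividing and differentiate. MGA also pairs with MAX, within a noncanonical polycomb complex.

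The members MXD4, MNT and MXD3 were lower in HGF-treated Detroit 562, as described further on, and their promoters are shown because the network's own binding site occurs in some of them. The sequences are from RefSeq (GRCh38.p14) and run from 250 bases before to 50 bases after the gene's start, 5′ to 3′ on the coding strand, with CACGTG in capitals. All of them lie on the minus strand, MXD4 at chr4:2262060-2262359, MNT at chr17:2401011-2401310 and MXD3 at chr5:177312703-177313002.
MXD4: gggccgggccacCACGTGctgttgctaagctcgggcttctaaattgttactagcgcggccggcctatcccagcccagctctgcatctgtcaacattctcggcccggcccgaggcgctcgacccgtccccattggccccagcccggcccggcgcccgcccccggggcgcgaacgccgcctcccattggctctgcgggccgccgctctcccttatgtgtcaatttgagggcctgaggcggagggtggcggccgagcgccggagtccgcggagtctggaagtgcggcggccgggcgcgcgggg
MNT: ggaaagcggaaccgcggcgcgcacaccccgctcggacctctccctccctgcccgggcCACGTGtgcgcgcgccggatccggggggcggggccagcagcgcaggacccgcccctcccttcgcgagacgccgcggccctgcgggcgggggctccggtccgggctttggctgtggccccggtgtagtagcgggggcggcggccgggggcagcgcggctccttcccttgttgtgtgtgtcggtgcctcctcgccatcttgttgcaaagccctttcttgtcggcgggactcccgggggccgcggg
MXD3: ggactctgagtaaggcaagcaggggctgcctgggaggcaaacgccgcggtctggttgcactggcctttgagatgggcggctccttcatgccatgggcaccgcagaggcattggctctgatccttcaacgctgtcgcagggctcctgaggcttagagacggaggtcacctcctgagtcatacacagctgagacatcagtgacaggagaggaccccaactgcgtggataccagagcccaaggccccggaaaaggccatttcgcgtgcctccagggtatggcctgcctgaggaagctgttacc
The palindrome CACGTG reads the same on both strands. Its first base lay at −238 from the start in MXD4 and at −193 in MNT, and the 300 bases of MXD3 held none. The table of promoters held 14 promoters of 9 member genes, and these were the 2 with the motif. For comparison, 2548 of all 35116 promoters of that table held it, or 7.26%, and by gene it was found in 1596 of the 14483 genes of the count table that had a promoter, or 11.02%. Of the MYC-induced targets listed further on, 27 of the 47 with a promoter held it, or 57.4%. A match is a matter of letters only, and binding was not measured.

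In untreated cells MYC was the leading member in every line. Levels of different genes were compared as CPM per kilobase (kb) of exon, since longer genes collect more reads. On this scale MYC stood at 77.8 ± 2.49 (SD, n = 3) in SCC-9, 43.9 ± 2.75 in FaDu and 21.2 ± 2.29 in Detroit 562. MAX, the shared partner, came next per exonic kb with 14.0 ± 0.602, 10.4 ± 0.508 and 9.09 ± 0.777 in the same order of lines. MXD3 followed with 6.18 ± 0.397, 4.58 ± 0.267 and 5.29 ± 0.578. In Detroit 562 the remaining order was MXD1 (2.51 ± 0.562), MNT (2.10 ± 0.00986), MXD4 (1.44 ± 0.317), MYCL (0.963 ± 0.481), MGA (0.810 ± 0.0928) and MXI1 (0.634 ± 0.111), in which the libraries of MXD1 and MNT, of MYCL and MXD4, and of MYCL, MGA and MXI1 overlapped. In FaDu it was MXD1 (3.83 ± 0.372), MGA (2.44 ± 0.264), MNT (2.22 ± 0.0820), MXD4 (1.70 ± 0.276), MXI1 (1.26 ± 0.510) and MYCL (0.334 ± 0.0486), in which MGA and MNT, and MXD4 and MXI1, overlapped. In SCC-9 MXD1 (4.05 ± 0.174) and MNT (3.90 ± 0.0793) overlapped, followed by MXI1 (2.70 ± 0.216), MGA (2.24 ± 0.132) and the overlapping MXD4 (1.92 ± 0.111) and MYCL (1.69 ± 0.236). Of the summed level of the network per exonic kb, MYC made up 67.9% ± 0.534 (SD, n = 3) in SCC-9, 62.1% ± 1.55 in FaDu and 48.0% ± 3.18 in Detroit 562. Reads in introns were counted too, and when levels were taken per kb of the whole gene instead, the mean share of MYC was higher in all 6 groups, between 73.7% and 87.9%, and the order below it turned. On that scale MAX, at 2.68%, 1.72% and 1.33% of the summed level in untreated Detroit 562, FaDu and SCC-9, had lower means than MXD3 (10.2%, 4.89% and 3.80%) and MNT (4.89%, 2.88% and 2.92%).

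**Figure D1:**
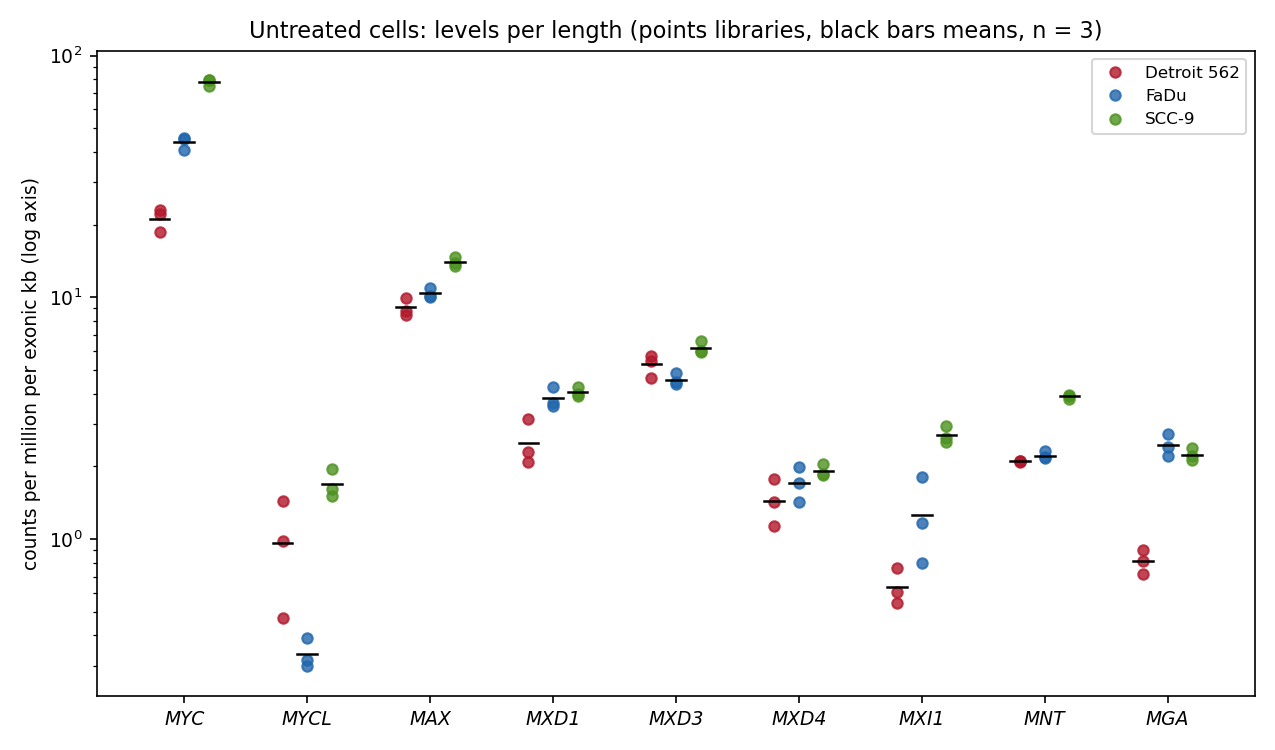
Levels of 9 network genes in untreated cells as CPM per exonic kb, on a log axis, with 1 point for each library, a black bar for the mean of 3 libraries and a color for each cell line. MYC stands highest in every line, at means of 21.2, 43.9 and 77.8, and MYCN is left out because several libraries held no read of it.

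MYCN, the family member of neuroblastoma, was at the limit of detection. All 18 libraries together held 20 of its reads, with 0 to 4 in a library, and none in the 3 control libraries of Detroit 562. A count of 0 allows up to 3 counts, here 0.0695 to 0.0913 CPM in a library, so MYCN was not detectable or barely so at this depth and no fold change is given. The other 9 members passed the filter on low counts and were tested. MYCL was the least abundant of these in FaDu, with 1.48 to 1.93 CPM in untreated cells, against 2.34 to 7.12 in Detroit 562 and 7.46 to 9.71 in SCC-9.

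The members differed between untreated lines about as often as other genes did. Calls required an adjusted p below 0.1 (edgeR, Benjamini-Hochberg over the 15475 genes tested) together with a log2 fold change of 0.4 or more in either direction. Between Detroit 562 and FaDu 5 of 9 members were called, where 61% of all genes were. MYCL was higher in Detroit 562 by a log2 of 1.53 (SE 0.305), and MYC (−1.05, SE 0.0920), MGA (−1.59, SE 0.141), MXI1 (−0.98, SE 0.255) and MXD1 (−0.61, SE 0.154) were lower there. Between Detroit 562 and SCC-9 8 of 9 members were called, all lower in Detroit 562, where 65.4% of all genes were called in either direction. MXI1 (−2.09, SE 0.255) and MYC (−1.88, SE 0.0938) differed most, and MXD3 was below the fold threshold (−0.22, SE 0.0950). The call of MXD4 in that comparison (−0.41, SE 0.161) lay at the threshold and was lost without control replicate 3 of Detroit 562 (−0.27) or control replicate 2 of SCC-9 (−0.36), and with DESeq2, its size factors or no filter (−0.39 to −0.40). Between FaDu and SCC-9 6 of 9 were called, all lower in FaDu, where 64.2% of all genes were called. MYCL (−2.34, SE 0.304), MXI1 (−1.11, SE 0.242), MYC (−0.82, SE 0.0912) and MNT (−0.81, SE 0.0972) led these, and MAX (−0.43) and MXD3 (−0.43) were near the threshold and lost their calls without control replicate 1 (−0.39) and control replicate 2 (−0.38) of SCC-9 respectively. These comparisons share the control libraries of each line. The libraries come from mixed cell populations, in which fewer cells expressing a gene and less RNA per cell cannot be told apart.

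HGF changed several members in Detroit 562: MYC rose and the repressors MXD3, MXD4 and MNT fell. These 4 of the 9 members tested were called, 1 upwards and 3 downwards, where 17.9% of all genes were called in this line, 6.16% upwards and 11.7% downwards. In its 3 control libraries MYC was at 85.3, 101 and 105 CPM, and in the 3 HGF libraries of the same order at 123, 128 and 141 CPM. Every HGF library lay above every control library. The log2 fold change was 0.43 (SE 0.0914, adjusted p = 0.00445 from edgeR), a 1.35-fold rise, and all 3 same-numbered pairs moved upwards. The fold change lay close to the threshold of 0.4 and dropped below it without control replicate 1 (0.34, adjusted p = 0.0336) or HGF replicate 3 (0.37, adjusted p = 0.0229). The rise left MYC in HGF-treated Detroit 562, at a mean of 131 ± 9.62 CPM (SD, n = 3), below its level in untreated FaDu (202 ± 12.6) and SCC-9 (357 ± 11.4). Marker lists of cell types also moved with treatment in this line. From control to HGF libraries the summed levels went from between 5860 and 8198 to between 3937 and 5800 CPM for the 8 epithelial markers, from between 29.8 and 54.3 to between 14.97 and 27.6 CPM for the 5 fibroblast markers and from between 1.158 and 2.90 to between 0.487 and 1.06 CPM for the 3 endothelial markers. CD68 went from between 20.2 and 40.3 to between 37.3 and 56.0 CPM. Of the epithelial markers KRT5, KRT8, KRT18, CDH1 and TP63 fell in every same-numbered pair. EPCAM rose, from 429, 416 and 433 to 483, 483 and 513 CPM, and KRT6A and KRT14 moved both ways. PDGFRB, LUM, DCN, PTPRC and CD3E were at or near 0 in these libraries. The fibroblast marker COL1A1 went from between 17.1 and 21.3 to between 10.8 and 11.5 CPM. COL1A2, of the same list, went from between 12.7 and 32.9 to between 4.14 and 16.1 CPM. In FaDu and SCC-9 the summed epithelial, fibroblast and endothelial levels overlapped between control and HGF libraries. CD68 did not overlap there, going from between 16.8 and 28.2 to between 29.3 and 35.9 CPM in FaDu. In SCC-9 it went from between 54.5 and 55.3 to between 57.3 and 57.9 CPM. COL1A1, VWF and CDH5 fell in every same-numbered pair of FaDu. The part of these shifts in the results was not tested.

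MXD4, a repressor of the MXD family found in resting and differentiated cells, had the steepest fall of the members called. Its gene lies at chr4:2247432-2262294 in GRCh38. The control libraries of Detroit 562 held 12.1, 9.83 and 7.78 CPM and the HGF libraries 5.37, 4.43 and 5.66 CPM. The groups did not overlap, although the controls differed among themselves by more than the HGF libraries did. The log2 fold change was −0.95 (SE 0.169, adjusted p = 0.00192 from edgeR), a 1.93-fold fall.

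MXD3, the MXD member expressed in dividing cells, lies at chr5:177301461-177312757. It went from 27.3, 25.9 and 22.0 CPM in the controls to 18.1, 15.9 and 15.4 CPM with HGF, again without overlap. Its log2 fold change was −0.60 (SE 0.0968, adjusted p = 0.00107 from edgeR), a 1.52-fold fall. The gene shares 2284 bases on the same strand with RAB24, and a read there was counted for both genes. RAB24 itself had a log2 fold change of −0.21 (SE 0.131, adjusted p = 0.247 from edgeR) and was not called.

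MNT, the most widely expressed antagonist of MYC, lies at chr17:2384060-2401118. Its 3 control libraries were almost equal at 18.3, 18.3 and 18.2 CPM, while the HGF libraries held 14.3, 11.2 and 14.3 CPM. The log2 fold change was −0.46 (SE 0.0996, adjusted p = 0.00476 from edgeR). HGF replicate 2 was the lowest of these libraries, and without it the fold change was −0.35 (adjusted p = 0.0185) and below the fold threshold. The calls of MXD3 and MXD4 held in all 18 fits that left out 1 library.

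The other members were not called in Detroit 562. MAX was at 53.1, 55.2 and 62.4 CPM in the controls and 62.0, 60.0 and 75.8 CPM with HGF, and the groups overlapped. Its log2 fold change of 0.21 (SE 0.0851, adjusted p = 0.0769 from edgeR) stayed below the fold threshold. MGA had a log2 fold change of 0.20 (SE 0.142) and MXI1, a repressor close to MXD1, one of 0.01 (SE 0.264). MXD1, the founding MXD gene, ranged from 13.2 to 19.98 CPM in the controls and from 16.2 to 24.6 with HGF, a log2 fold change of 0.27 (SE 0.155, adjusted p = 0.219 from edgeR), and passed both thresholds without control replicate 3 (0.46, adjusted p = 0.0291), whereas without HGF replicate 3 the fold change was 0.049 (adjusted p = 0.851). MXD1 shares 7888 bases on the same strand with SNRNP27, a splicing factor gene whose own value was 0.29 (SE 0.0890, adjusted p = 0.0281 from edgeR). MYCL spread widely, with 7.12, 4.89 and 2.34 CPM in the controls and 2.77, 3.07 and 4.50 with HGF, and its log2 fold change of −0.48 (SE 0.291, adjusted p = 0.236 from edgeR) was called only without control replicate 3 (−0.81, adjusted p = 0.0137) among these left-out fits, and was −0.08 (adjusted p = 0.899) without control replicate 1.

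**Figure D2:**
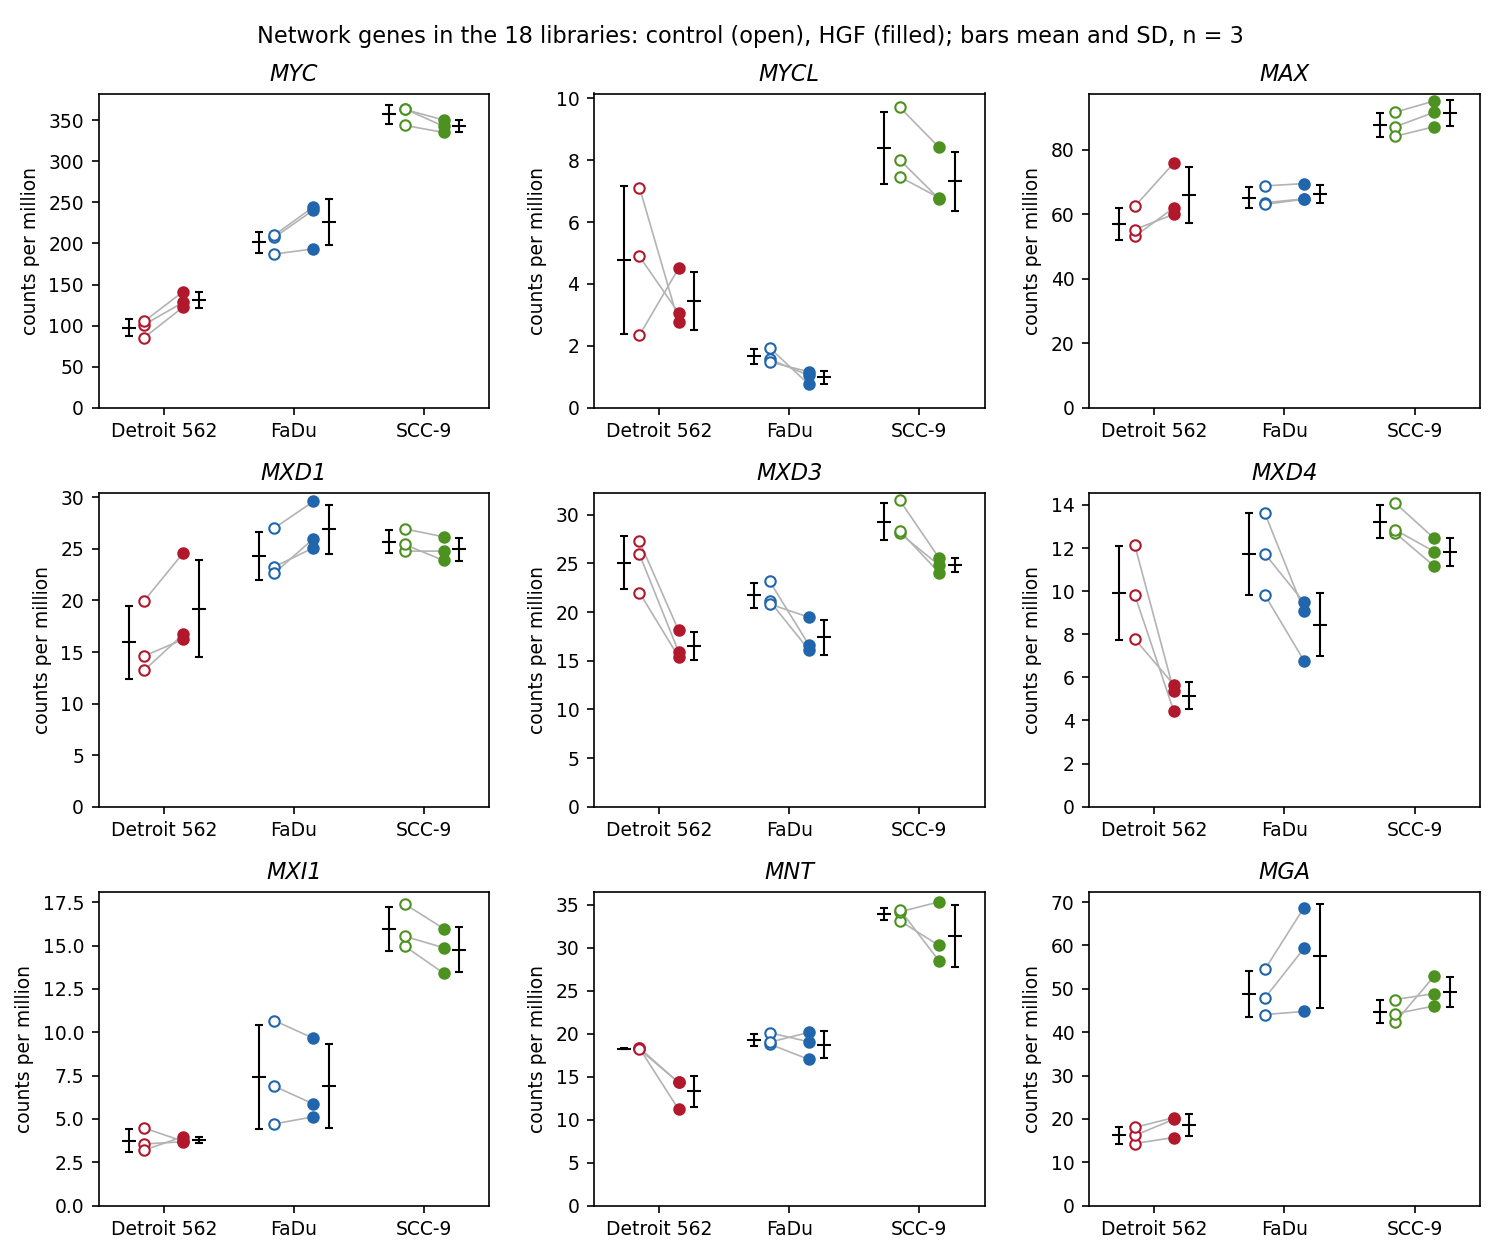
Levels in CPM of 9 network genes in all 18 libraries, each panel starting at 0, with open points for control and filled points for HGF, grey lines between libraries of the same line and replicate number, and black bars for mean and SD of 3 libraries. In Detroit 562 the HGF points of MYC lie above all control points, and those of MXD3, MXD4 and MNT lie below them.

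In FaDu and SCC-9 no member was called, with edgeR or with DESeq2. At an unadjusted p below 0.05 there were 3 members in FaDu and 1 in SCC-9 with edgeR, and the same numbers with DESeq2. Of all 15475 genes 1247 in FaDu and 641 in SCC-9 had such a p in edgeR, and 1358 and 659 in DESeq2 without prior. With edgeR 0.0258% of all genes were called in FaDu and 0% in SCC-9. DESeq2 without prior called 65 of the 15475 genes in FaDu and 19 in SCC-9. MYC was at 207, 210.2 and 187 CPM in the FaDu controls and at 241, 245 and 193 CPM with HGF, a log2 fold change of 0.17 (SE 0.0907, adjusted p = 0.641 from edgeR). In SCC-9 it was at 344, 363 and 364 CPM in the controls and at 335, 350.3 and 343 with HGF, a log2 fold change of −0.06 (SE 0.0905, adjusted p = 1 from edgeR). The control and HGF libraries of MYC overlapped in both lines, although MYC was higher with HGF in all 3 same-numbered pairs of FaDu and lower in all 3 of SCC-9.

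MXD3 and MXD4 were lower with HGF in every same-numbered pair of these lines too, without passing the test. Other members also moved 1 way in all 3 pairs of both lines: MAX and MGA upwards, as in Detroit 562, and MYCL downwards. MXD1 rose in all 3 pairs of FaDu and MXI1 fell in all 3 of SCC-9. MXD3 was at 21.1, 23.2 and 20.8 CPM in the FaDu controls and at 16.1, 16.6 and 19.5 CPM with HGF. In SCC-9 it was at 28.1, 31.5 and 28.3 CPM and at 24.8, 25.6 and 24.1 CPM. Neither pair of groups overlapped, and the log2 fold changes were −0.32 (SE 0.0962, adjusted p = 0.477) and −0.24 (SE 0.0949, adjusted p = 1 from edgeR). MXD4 was at 13.6, 11.7 and 9.81 CPM in the FaDu controls and at 9.09, 9.48 and 6.77 CPM with HGF, with a log2 fold change of −0.47 (SE 0.162, adjusted p = 0.537 from edgeR). In SCC-9 MXD4 was at 12.7, 14.1 and 12.8 CPM and at 11.2, 12.4 and 11.8 CPM, with a log2 fold change of −0.16 (SE 0.160). When replicate number entered the model as a block nested in line, MXD4 was called in FaDu (−0.47, adjusted p = 0.0112 from edgeR), where 5.6% of all genes were called in that fit, and MXD3 reached an adjusted p of 0.0110 in FaDu and 0.0853 in SCC-9 while staying below the fold threshold. MYC (0.16, adjusted p = 0.0372 from edgeR) and MGA (0.22, adjusted p = 0.0474 from edgeR) did likewise in FaDu. The block left the same 4 members called in Detroit 562, with 21.5% of all genes called, and none in SCC-9, with 1.97%.

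MNT, which fell in Detroit 562, had log2 fold changes of −0.04 (SE 0.0977) in FaDu and −0.11 (SE 0.0958) in SCC-9, and its libraries overlapped in both. MYCL was low in FaDu, with 1.57, 1.93 and 1.48 CPM in the controls and 1.04, 0.754 and 1.161 with HGF. Its groups did not overlap there, but the log2 fold change of −0.74 (SE 0.341, adjusted p = 0.609 from edgeR) rested on 30 to 77 reads in a library. MAX, MXD1, MXI1 and MGA had log2 fold changes between −0.11 and 0.24 in these lines. MGA ranged from 44.1 to 54.5 CPM in the FaDu controls and from 44.8 to 68.7 CPM with HGF, and MXI1 from 4.72 to 10.7 and from 5.13 to 9.66 CPM, so that both varied more between replicates than between treatments.

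**Figure D3:**
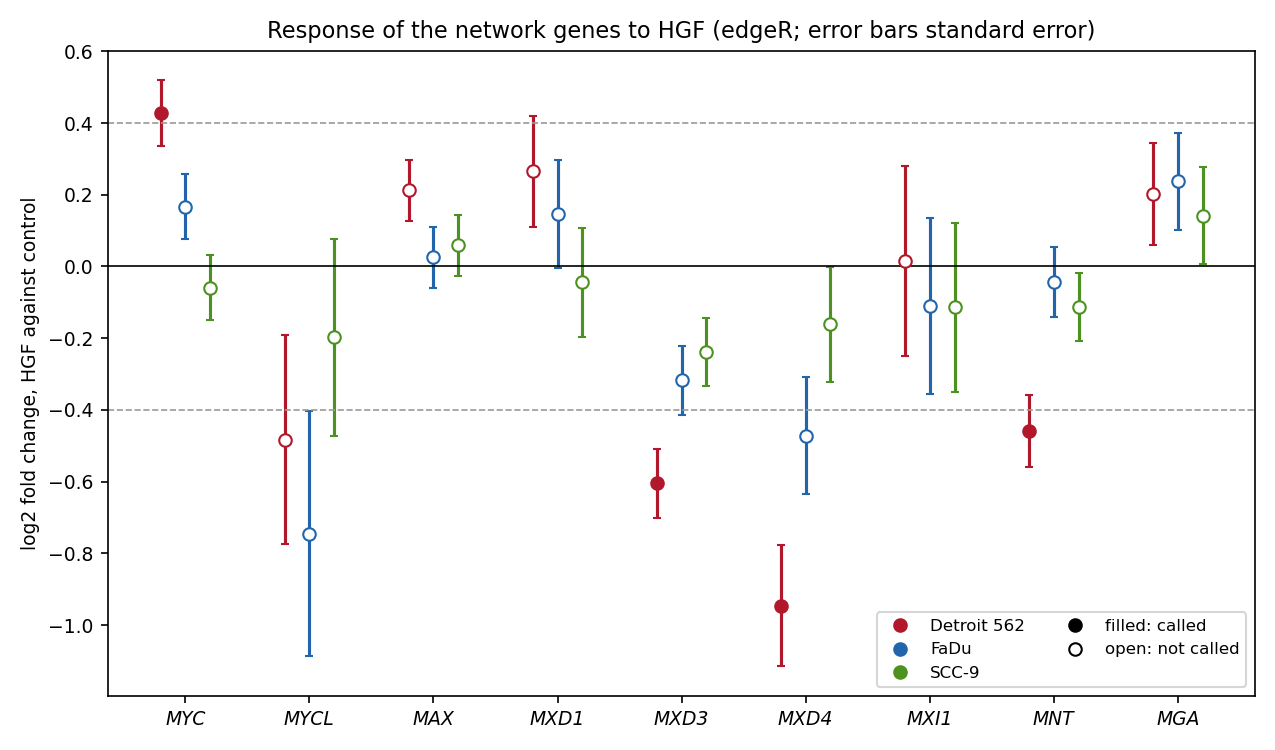
Log2 fold change of HGF against control for 9 network genes in Detroit 562, FaDu and SCC-9 (edgeR, error bars standard error), with dashed lines at the fold threshold of 0.4 in both directions. The 4 filled points are the calls, all in Detroit 562: MYC at 0.43, MXD3 at −0.60, MXD4 at −0.95 and MNT at −0.46.

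Whether the lines responded differently was tested with the interaction of line and treatment at an adjusted p below 0.1. No member passed with 1 mean per group in edgeR, where 0.239% of all genes passed between Detroit 562 and FaDu, 0.924% between Detroit 562 and SCC-9 and 0% between FaDu and SCC-9. At an unadjusted p below 0.05 there were 1, 4 and 0 members in these comparisons, against 1788, 2378 and 337 of 15475 genes. The closest were MYC and MXD4 between Detroit 562 and SCC-9, with a difference of log2 fold changes of 0.49 (SE 0.129, adjusted p = 0.122 from edgeR) and −0.78 (SE 0.232, adjusted p = 0.159 from edgeR). DESeq2 without a fold change prior called these 2 members in that comparison, where it called 4.26% of all genes, and none between Detroit 562 and FaDu (1.68% of all genes) or FaDu and SCC-9 (0.0258%). Without control replicate 3 of Detroit 562 MYC (0.55), MXD4 (−0.93) and MXD3 (−0.45) passed between Detroit 562 and SCC-9. Without HGF replicate 3 of FaDu MYC did (0.49, adjusted p = 0.0614 from edgeR). Over all genes 1240 of 15653 and 181 of 15624 passed in these fits, against 143 of 15475 with all libraries.

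In the blocked model 5 members passed between Detroit 562 and FaDu, where 19.1% of all genes did, and 5 between Detroit 562 and SCC-9, where 26.9% did. MYC (difference 0.49, adjusted p = 0.000248 from edgeR), MXD4 (−0.78, adjusted p = 0.00386), MXD3 (−0.37, adjusted p = 0.0209), MNT (−0.35, adjusted p = 0.0463) and MXD1 (0.31, adjusted p = 0.0183) were those against SCC-9. None passed between FaDu and SCC-9, where 1.32% of all genes did. Whether members were called for a different response in Detroit 562 thus depended on the pairing of the libraries, on the tool and on single libraries.

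The ratio of MYC to the MXD-type repressors moved with these changes. As levels per exonic kb, MYC over the sum of MXD1, MXD3, MXD4, MXI1 and MNT was 1.47, 1.89 and 1.98 in the 3 Detroit 562 controls and 2.83, 3.27 and 3.00 in the HGF libraries. The means were 1.78 ± 0.275 and 3.04 ± 0.219 (SD, n = 3), without overlap. HGF-treated Detroit 562 thereby came close to untreated FaDu, at 3.23 ± 0.124. In FaDu the ratio was 3.97 ± 0.646 with HGF, and its lowest HGF library, 3.26, lay below its highest control library, 3.37. SCC-9 had the highest mean ratios, 4.15 ± 0.0333 in the controls and 4.40 ± 0.0407 with HGF, which did not overlap. The highest single library was HGF replicate 1 of FaDu at 4.51, and per kb of the whole gene the mean of HGF-treated FaDu (9.74 ± 1.62) lay above that of the SCC-9 controls (9.54 ± 0.227). The ratio of MYC to MAX went from 2.33 ± 0.155 to 2.72 ± 0.188 in Detroit 562, from 4.24 ± 0.459 to 4.67 ± 0.762 in FaDu and from 5.57 ± 0.404 to 5.13 ± 0.289 in SCC-9. These ratios combine members whose changes are given above and were not tested on their own, and they are ratios of RNA, not of protein.

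**Figure D4:**
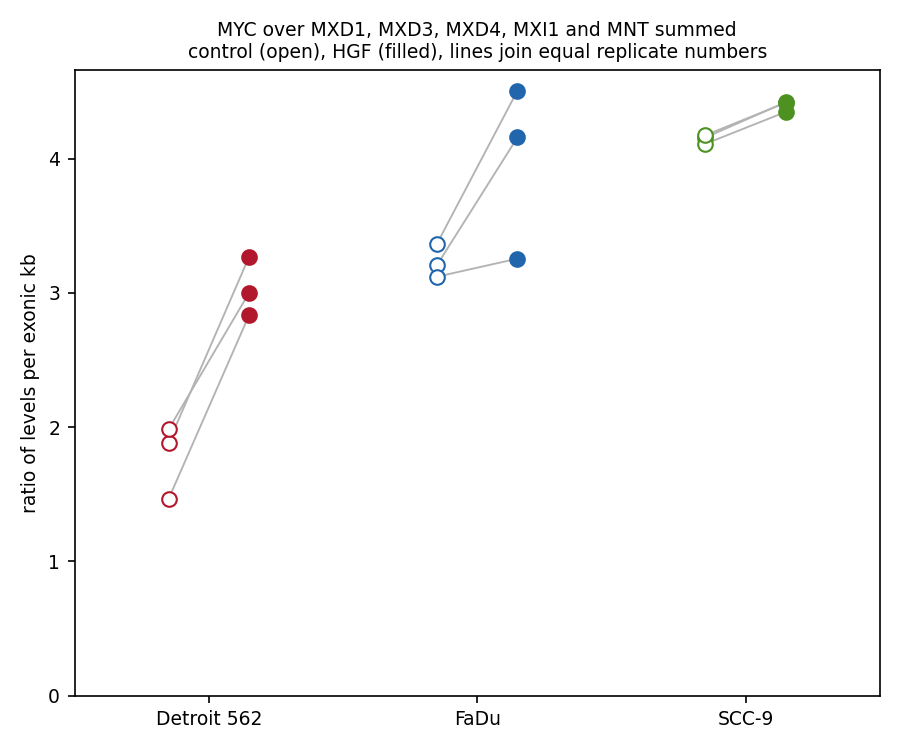
Ratio of MYC to the summed MXD1, MXD3, MXD4, MXI1 and MNT, as levels per exonic kb, in each library, with open points for control, filled points for HGF and grey lines between equal replicate numbers. In Detroit 562 the control libraries lie between 1.47 and 1.98 and the HGF libraries between 2.83 and 3.27, while FaDu overlaps and SCC-9 shifts by little.

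As a description of the other side of the network, genes known to be induced by MYC rose widely in HGF-treated Detroit 562. Of 58 such genes 29 were called upwards and none downwards, with a median log2 fold change of 0.41 beside −0.01 over all genes tested. Upward calls made up 6.16% of all genes. Without regard to fold size 49 had an adjusted p below 0.1 in edgeR, against 34.1% of all genes, all upwards apart from the nucleoside transporter SLC29A2 (−0.39). RRP9, a protein of the U3 small nucleolar ribonucleoprotein, went from 29.0, 31.5 and 44.1 CPM to 60.6, 53.4 and 61.8 CPM, a log2 fold change of 0.75 (SE 0.131, adjusted p = 0.00163 from edgeR). TCOF1, which serves ribosomal RNA transcription, rose by 0.47 (SE 0.0845), and SLC19A1, the reduced folate carrier, by 0.57 (SE 0.104). For RRP9, TCOF1 and SLC19A1 the control and HGF libraries did not overlap. The count depended on control replicate 1 of Detroit 562, without which 12 of the 58 were called. In that fit 544 of 15617 genes were called upwards, against 954 of 15475 with all libraries. The list holds many ribosome biogenesis genes, which were already known to rise in these libraries, and is no independent evidence of a direction. In FaDu 55 and in SCC-9 51 of the 58 had a log2 fold change above 0, with medians of 0.17 and 0.09, and none was called in edgeR or DESeq2. In edgeR 12 of them in FaDu and 0 in SCC-9 had an unadjusted p below 0.05, and in DESeq2 18 and 1. Of all 15475 genes 1247 and 641 did in edgeR, and 1358 and 659 in DESeq2 without prior. With the block ODC1, the key enzyme of polyamine synthesis, was called in FaDu (0.42, adjusted p = 0.000545 from edgeR). In that fit 26 of the 58 in FaDu and 1 in SCC-9 had an adjusted p below 0.1 without regard to fold size, against 17.4% and 5.29% of all genes. The interaction of line and treatment was also read for the 58. With 1 mean per group in edgeR 0 passed between Detroit 562 and FaDu or SCC-9, beside 0.239% and 0.924% of all genes. DESeq2 without prior passed 1 and 5, beside 1.68% and 4.26%. The block passed 31 and 46, beside 19.1% and 26.9%. Whether these genes passed for a different response thus depended on the model.

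Genes known to be repressed by MYC moved both ways in Detroit 562. Of 14 listed genes 13 were tested, PDGFRB being too low, and 6 fell and 3 rose, where 11.7% of all genes fell and 6.16% rose, with a median of −0.35. NDRG2, a growth-restraining gene, went from 79.4, 84.0 and 58.2 CPM to 37.95, 42.1 and 31.2 CPM, a log2 fold change of −0.99 (SE 0.157, adjusted p = 0.00102 from edgeR). A read in the part that NDRG2 shares with RNASE13 on its strand was counted for both. The cyclin-dependent kinase inhibitor genes named here went in different directions: CDKN2B (−0.74, SE 0.224) and CDKN1C (−1.19, SE 0.376) fell and CDKN1A (0.61, SE 0.187) rose. CDKN1B, also listed, was not among the called genes with the smallest p. THBS1, a matrix glycoprotein, rose by 0.44 (SE 0.162) and GADD45A, a stress response gene, by 0.42 (SE 0.155). The count of 9 calls was 3 without control replicate 1 or HGF replicate 3 and 5 without control replicate 2. Calls over all genes went from 2766 to 1586 without control replicate 1. They went to 1875 without HGF replicate 3 and 1958 without control replicate 2. In FaDu 11 and in SCC-9 8 of the 13 had a log2 fold change below 0, with medians of −0.27 and −0.09. None was called in FaDu or SCC-9 in edgeR or DESeq2. At an unadjusted p below 0.05 there were 0 and 1 in edgeR and 1 and 1 in DESeq2. The numbers over all genes are those given with the MYC-induced targets. In the interaction test 0 of the 13 passed between Detroit 562 and either line, in edgeR with 1 mean per group or DESeq2. The block passed 4 against FaDu and 5 against SCC-9, beside 19.1% and 26.9% of all genes. With the block CEBPA, a differentiation factor, fell in FaDu (−0.49, adjusted p = 0.0545 from edgeR), and in SCC-9 NDRG2 (−0.61, adjusted p = 0.0150) and CEBPA (−0.49, adjusted p = 0.0891) did. Without regard to fold size the block left 6 of the 13 in FaDu and 3 in SCC-9 with an adjusted p below 0.1, against 17.4% and 5.29% of all genes.

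**Figure D5:**
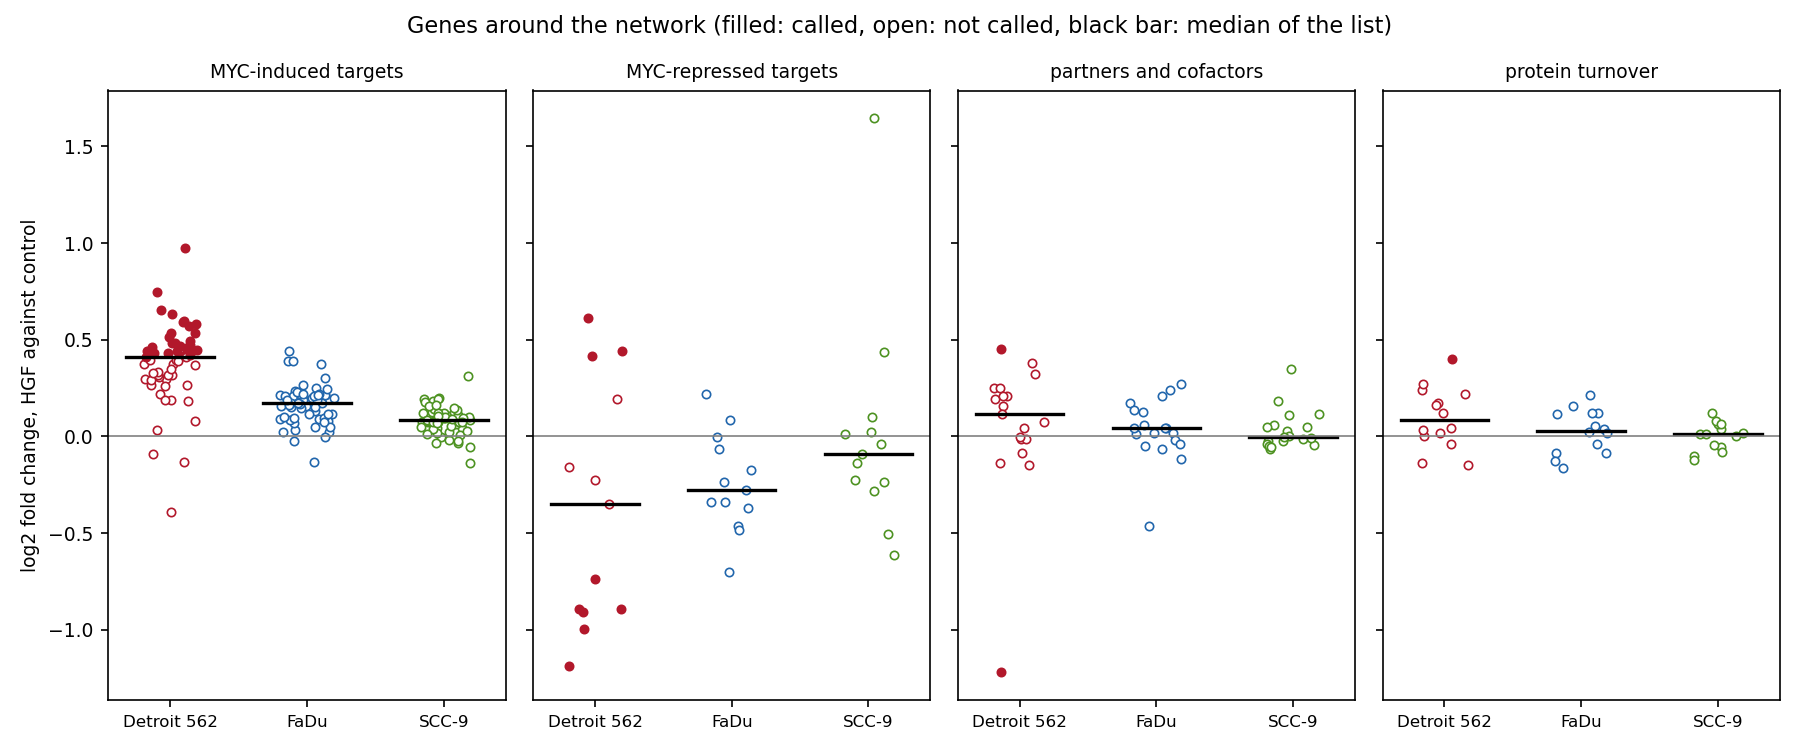
Log2 fold change of HGF against control for the genes of 4 lists around the network, 1 point for each gene, filled where called, with a black bar for the median of each list in Detroit 562, FaDu and SCC-9. MYC-induced targets have medians of 0.41, 0.17 and 0.09 and MYC-repressed targets −0.35 in Detroit 562, and every filled point is in Detroit 562.

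Of 19 partners and cofactors of the network, among them the SIN3 and histone deacetylase genes through which MXD proteins act and the TRRAP and RUVBL genes used by MYC, 2 were called in Detroit 562, where 17.9% of all genes were. Without regard to fold size 10 of the 19 had an adjusted p below 0.1 in edgeR, against 34.1% of all genes, and the median log2 fold change of the list was 0.12. MLX, which pairs with MondoA and with some MXD proteins in place of MAX, rose from 41.4, 43.8 and 51.1 CPM to 60.1, 58.1 and 68.5 CPM, a log2 fold change of 0.45 (SE 0.0856, adjusted p = 0.00245 from edgeR). MLXIPL, the glucose-sensing partner of MLX also called ChREBP, fell from 4.20, 3.75 and 3.58 CPM to 2.05, 1.56 and 1.31 CPM, a log2 fold change of −1.22 (SE 0.230, adjusted p = 0.00245 from edgeR). Without control replicate 1 only MLXIPL of the 19 was called, where 1586 of all 15617 genes were. Of 14 genes for the turnover of MYC protein, USP36, a nucleolar deubiquitinase of MYC, lay at the threshold in Detroit 562 (0.40, SE 0.143, adjusted p = 0.0491 from edgeR) and the rest were not called. That call was lost without control replicate 1, control replicate 2 or HGF replicate 3 and with DESeq2. TXNIP and ARRDC4, targets of MondoA and MLX that restrain glucose uptake, had log2 fold changes of −0.39 (SE 0.619) and −0.04 (SE 0.524) in Detroit 562. TXNIP was at 61.4, 61.5 and 78.5 CPM in the controls and at 33.4, 34.5 and 85.7 CPM with HGF, so that replicate 3 stood apart in both groups, and with the block it was called (−0.51, adjusted p = 0.00968 from edgeR). In FaDu and SCC-9 no gene of these lists was called in edgeR or DESeq2. For the partners 2 and 1 genes had an unadjusted p below 0.05 in edgeR and 3 and 1 in DESeq2. For turnover and the MondoA targets there were 0 with both tools. Numbers over all genes are given with the MYC-induced targets. For the interaction of Detroit 562 with FaDu and SCC-9, 0 and 1 partners passed in edgeR with 1 mean per group. With the block 4 and 8 partners passed. For turnover genes these numbers were 0 and 0, and 2 and 4 with the block. The shares of all genes in these fits are given there too.

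The genes whose pattern was most like that of MYC were sought by Pearson's r of log2 CPM over the 18 libraries after the mean of each line had been subtracted. SF3B1, a core splicing factor, came first with r = 0.901, followed by CDC42EP1 (0.890), YARS, the tyrosyl-tRNA synthetase gene (0.887), EEF1B2, a translation elongation factor gene (0.878), and ELFN2 (0.878). Of these CDC42EP1 was called in Detroit 562 (log2 fold change 0.43, adjusted p = 0.00229 from edgeR) and so was ELFN2 (0.72, adjusted p = 0.0168). By the same measure the members ran from MXD3 (r = −0.80), MNT (−0.62) and MXD4 (−0.61) to MAX (0.51). The libraries share treatment and replicate number, so these values describe the pattern and carry no p.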

How the data were processed

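Stranded mRNA sequencing counts of 18 libraries (6 groups of 3) were analysed. By the submitters' processing notes and the paper, the authors trimmed reads with Cutadapt 1.16 and 1.17, aligned them with STAR 2.5.2b to GRCh38.p12 with GENCODE 28 and counted reads over whole gene extents, introns included, with bedtools by strand. The deposited values are raw counts per gene. Depth per library is given in the report, and the floor given for MYCN covers counting error only.

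Here filterByExpr kept 15475 of 19901 genes, and a quasi-likelihood model with 1 mean per group was fitted after TMM scaling in edgeR 4.0.16 (R 4.3.3). CPM are TMM-scaled. The model has no replicate term. Calls needed a log2 fold change of 0.4 or more in either direction and an adjusted p below 0.1, interactions the adjusted p alone. Alternatives were a replicate block, other scaling factors and filters, DESeq2 1.42.0, single lines, other thresholds and each library left out. Exon lengths were from GENCODE 44, clipped to the counted extent. The fits were tested on simulated data.

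For same-numbered control and HGF libraries, deviations from the group mean correlated across genes at 0.161 to 0.563. Differently numbered ones of the same line correlated at −0.489 to 0.218, and the numbers were taken to pair the libraries. In Detroit 562 this was less clear, since control 1 with HGF 2 (0.218) lay above the same-numbered pair 2 (0.161). Members and lists were chosen with earlier results of these data known. All 10 members were named, the 3 called list genes with the smallest p per direction in Detroit 562, both MondoA targets, list genes called in other lines and the 5 genes most like MYC. SLC29A2, RAB24 and SNRNP27 and the library-level marker genes were named after their values were seen. A marker of the leukocyte list is not reported here, and the summed level of that list is left out.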

Additional observations from a re-analysis of the deposited data

Results flagged for a closer look

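Responses to HGF that differed between lines came from the blocked model (replicate number within line), and with 1 mean per group none of them passed (edgeR). Between Detroit 562 and FaDu the difference of log2 fold changes was 0.27 for MYC (SE 0.0661, adjusted p = 0.0173), 0.18 for MAX (SE 0.0623, adjusted p = 0.0701), −0.28 for MXD3 (SE 0.103, adjusted p = 0.0846), −0.47 for MXD4 (SE 0.161, adjusted p = 0.0720) and −0.42 for MNT (SE 0.117, adjusted p = 0.0327). Between Detroit 562 and SCC-9 it was 0.49 for MYC (SE 0.0658), 0.31 for MXD1 (SE 0.0821), −0.37 for MXD3 (SE 0.101), −0.78 for MXD4 (SE 0.158) and −0.35 for MNT (SE 0.114), with adjusted p between 0.000248 and 0.0463. The direction of the differences was the same in the model without the block for all 10. Both comparisons use the Detroit 562 libraries.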

How the results depend on the processing

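The calls of MXD3 and MXD4 in Detroit 562 held in every scaling, filter, tool and left-out fit run, and failed at the stricter threshold (log2 of 1 or more with an adjusted p below 0.05), where 0 members were called. Those of MYC and MNT held likewise apart from the left-out libraries named in the report. The stricter threshold left 3, 3 and 2 members between untreated Detroit 562 and FaDu, Detroit 562 and SCC-9, and FaDu and SCC-9, 1 partner or cofactor, 0 turnover genes, 0 MYC-induced and 1 MYC-repressed target in Detroit 562. Calls over all genes were not counted at the stricter threshold, so these counts cannot be read as many or few. With no minimum fold change there were 10 partners, 5 turnover genes and 49 MYC-induced targets in Detroit 562, beside 34.1% of all genes. The replicate block gave 1 member, 1 MYC-induced and 1 MYC-repressed target in FaDu, 2 MYC-repressed targets in SCC-9, 1 MondoA target in Detroit 562, and 5 and 5 members with a different response between Detroit 562 and FaDu or SCC-9, and changed no other count of called members by over 1.5 times. At an unadjusted p below 0.05 it gave 5 members in FaDu, and 5 and 2 for the response between Detroit 562 and FaDu and between FaDu and SCC-9. Of all 15475 genes 4022, 4362 and 1525 had such a p in these comparisons. DESeq2 without a prior gave 2 members for the response between Detroit 562 and SCC-9. The 1 turnover gene was lost (0 called) with DESeq2's size factors, upper-quartile factors, a filter of 50 counts in 3 libraries, DESeq2 with or without prior and Detroit 562 fitted alone. The cause of these shifts was not tested.

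With 1 library left out at a time, the different responses between Detroit 562 and SCC-9 numbered 0 to 3. In Detroit 562 there were 1 to 3 partners, 0 to 1 turnover genes, 12 to 37 MYC-induced and 3 to 9 MYC-repressed targets. Over all genes the different responses numbered 14 to 1240 and the calls in Detroit 562 1586 to 3629 in these fits. Log2 values that were not called and changed sign were MXI1 in Detroit 562 (−0.086 to 0.16, and −0.0056 with upper-quartile factors), MNT (−0.086 to 0.022) and MXI1 (−0.43 to 0.24) in FaDu, the differences between Detroit 562 and FaDu of MGA (−0.19 to 0.11), MXD1 (−0.10 to 0.31), MXI1 (−0.23 to 0.45) and MYCL (−0.064 to 0.67), those between Detroit 562 and SCC-9 of MGA (−0.021 to 0.17) and MYCL (−0.61 to 0.12), and those between FaDu and SCC-9 of MAX (−0.057 to 0.0079), MGA (−0.050 to 0.25) and MXI1 (−0.32 to 0.36). Low counts limit MYCN, which was not tested, and MYCL in FaDu, with 30 to 77 reads in a library. MYCL and MXI1 had the largest errors of the members, and the cause was not tested. DESeq2 with its prior gave no interaction test.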
